A study of Mus musculus with 12 samples.

Results

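The 10 genes described here store iron, bind metal ions or remove peroxides and superoxide: Fth1, Ftl1, Mt1, Mt2, Prdx1, Prdx2, Txn1, Gpx4, Sod1 and Gstp1. They were chosen by name, and their reads were taken from a per-read table where the quality tag of the read was PASS, its class was mRNA and its gene was one of the 10. All 10 had reads, out of 14664 genes with such a read, and together they took 30549 of 4625696 reads (0.660%). In direct RNA sequencing on nanopores each read is 1 native RNA molecule, which tells which gene it came from and how long its poly(A) tail is. Reads were therefore counted per molecule and not divided by transcript length.

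The cells were P19, a mouse embryonal carcinoma line (WT), sampled at D0, D2, D4 and D6 with 3 libraries at each day, 12 libraries in all. The D0 cells were undifferentiated cells from medium with serum. D2, D4 and D6 are 2, 4 and 6 days in NDiff 227 medium with 500 nM retinoic acid, which drives P19 cells toward neurons. Time, medium and retinoic acid changed together, and each of the 13 sequencing runs held 1 day, so these cannot be told apart in any comparison with D0. Run and day cannot be told apart between the later days either. The names of the 3 runs that held the D0 libraries say both undifferentiated and D2, and the day was taken from the library name of each read, which matches the sample labels. P19 is 1 line. The authors call the 3 libraries of a day biological replicates, and the labels do not say whether these came from separate cultures. The p-values therefore measure the spread between these libraries. Poly(A) RNA was selected before sequencing, and the values are shares of that RNA: fewer cells of a type and less RNA per cell cannot be told apart.

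Libraries held from 130162 (D2 replicate 1) to 642548 (D0 replicate 2) usable mRNA reads, so D2 was the least precise day. The 12 listed pluripotency markers summed to between 1667 and 1917 CPM in D0 libraries (CPM are reads of a gene scaled to a common library size, as a level). Pou5f1 alone had a mean of 1570 CPM there, and 3 of the 12 (Dppa5a, Klf4 and Zfp42) had no read at D0. The sum was at most 15.01 in D2 libraries, all 12 had 0 reads at D4, and the sum was 7.49 to 9.84 at D6. The 15 listed neural markers rose from between 634.5 and 654 to between 4231 and 4533 CPM at D6. Of the 19 listed endoderm, mesoderm and glial markers, 11 had no read at D0 and 11 had none at D6 (Afp, Gata4, Sox17 and Aqp4 both times). The list summed to between 221 and 251 CPM at D0 and to between 37.4 and 52.5 at D6, and the part of such cells in the results below was not tested.

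Ferritin is a shell of heavy (Fth1) and light (Ftl1) subunits. The heavy subunit oxidises ferrous iron, and the light subunit helps to form the iron core. Translation of both mRNAs is held down, when iron is scarce, by iron regulatory proteins that bind a hairpin in the leader, the iron-responsive element. Metallothioneins (Mt1 and Mt2) are small cysteine-rich proteins that hold zinc and copper, and their genes are switched on by zinc through a factor that binds metal-responsive elements. Peroxiredoxins (Prdx1 and Prdx2) reduce peroxides and are themselves reduced by thioredoxin (Txn1). Gpx4 uses glutathione to reduce lipid hydroperoxides, Sod1 turns superoxide into hydrogen peroxide, and Gstp1 joins glutathione to electrophiles.

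The iron-responsive elements of the 2 ferritin mRNAs are shown because they are the sequence the subunits share, while their read counts moved apart. Each stretch has 30 bases of the spliced transcript (GENCODE vM21, GRCm38), 5′ to 3′. The capitals mark the unpaired C and the 6 loop bases.
Fth1: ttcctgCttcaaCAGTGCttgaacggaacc
Ftl1: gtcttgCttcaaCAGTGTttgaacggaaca
The Fth1 element lies in exon 1 at chr19:9982732-9982761 on the plus strand, 108 bases before the start codon, and that of Ftl1 in exon 1 at chr7:45459778-45459807 on the minus strand, 146 bases before it. They differed at 4 of 30 bases. The pattern searched was CAGTGN, flanked by 5 base pairs (G with T allowed) and an unpaired C, in the first 300 bases of a transcript. It was found in 136 of 141767 annotated transcripts (0.0959%), among them transcripts of Slc40a1 and Alas2. Reads start at the 3′ end and often stop before the 5′ end: 80.1% of the 4202 reads on the main Fth1 transcript began at or before the element, as did 77.4% of the 6505 on that of Ftl1. In day order these shares were 77.7%, 78.7%, 86.7% and 78.7% for Fth1 and 75.3%, 73.7%, 83.8% and 75.6% for Ftl1.

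The metallothionein promoters are shown because the 2 neighbouring genes moved differently, and that of Prdx1 because it alone of the peroxiredoxin pair held one of the letters searched. Each window runs from 250 bases before to 50 bases after a RefSeq start (GRCm38.p6), 5′ to 3′ on the strand of the gene. The windows are chr8:94178839-94179138 (plus) for Mt1, chr8:94172368-94172667 (plus) for Mt2 and chr4:116685349-116685648 (plus) for Prdx1. Capitals mark matches on either strand to the metal-responsive core TGCACNC or TGCGCNC, the antioxidant-responsive core TGACNNNGC, or TATAAA.
Mt1: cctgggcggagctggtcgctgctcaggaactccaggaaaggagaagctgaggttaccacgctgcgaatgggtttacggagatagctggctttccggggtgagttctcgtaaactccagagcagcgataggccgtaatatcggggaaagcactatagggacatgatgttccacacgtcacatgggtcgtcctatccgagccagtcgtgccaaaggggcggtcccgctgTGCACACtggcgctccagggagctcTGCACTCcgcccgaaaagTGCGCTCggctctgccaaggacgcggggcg
Mt2: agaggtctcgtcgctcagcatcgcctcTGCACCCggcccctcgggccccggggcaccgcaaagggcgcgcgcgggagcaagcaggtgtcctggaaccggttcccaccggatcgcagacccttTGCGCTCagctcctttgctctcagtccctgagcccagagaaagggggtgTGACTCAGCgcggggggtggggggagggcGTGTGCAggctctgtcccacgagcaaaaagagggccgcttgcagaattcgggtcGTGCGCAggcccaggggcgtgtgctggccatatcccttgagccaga
Prdx1: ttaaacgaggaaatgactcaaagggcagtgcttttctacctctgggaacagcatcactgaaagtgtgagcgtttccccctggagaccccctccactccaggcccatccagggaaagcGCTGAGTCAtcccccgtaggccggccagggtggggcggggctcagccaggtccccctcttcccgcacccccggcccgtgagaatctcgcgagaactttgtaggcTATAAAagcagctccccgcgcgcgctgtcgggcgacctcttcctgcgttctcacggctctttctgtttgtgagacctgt
Mt1 held 3 metal-responsive cores and Mt2 held 4, while no window of the other 8 genes held any. At least 1 such core was in 25.7% of 32851 promoter windows of this length, and 3 or more were in 1.97%. The core TGACNNNGC was in the windows of Mt2, Prdx1 and Sod1 and in 12.4% of all windows. TATAAA was in 13.6% of all windows and in 5 genes here (Prdx1, Txn1, Sod1, Ftl1 and the upstream one of the Fth1 windows). Mt1 reads on its main transcript began at a median of base 125 and those of Mt2 at base 131, both past the annotated start. The windows were placed by the RefSeq start, so the counts of cores and of TATAAA hold for that start only. They may not describe the promoter in use for Mt1 and Mt2, and which start was in use was not tested. A match here is only a match of letters.

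The 2 ferritin subunits went apart. Fth1 fell from D0 to each later day, by 0.90 ± 0.10 (SE) on the log2 scale at D6 (a 1.86-fold drop), while no change of Ftl1 was detected. The 3 D0 libraries held 1296, 1327 and 1270.0 CPM of Fth1, those of D2 held 923, 897 and 927, and those of D6 held 738, 633 and 739. D4 was wider, with 1032, 829 and 775. All 9 libraries from D2 on lay below all 3 of D0. By limma-voom the adjusted p was 0.000592 at D2, 2.64e-06 at D4, then 9.97e-11 at D6, and neither D4 against D2 (0.762) nor D6 against D4 (0.0774) was called.

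Ftl1 had 1319.9, 1467 and 1570.1 CPM at D0 and 1801, 1116 and 1513 at D6. The days overlapped throughout, with log2 differences against D0 of 0.13 ± 0.12, 0.03 ± 0.11 and -0.04 ± 0.11 at D2, D4 and D6 (adjusted p 0.551, 0.881 and 0.813). The spread within D6 (SD 344 of a mean of 1476, n = 3) was the widest of the 4 days. Within each library, where scaling cancels, Fth1 reads per Ftl1 read went from 0.896 at D0 (geometric mean) to 0.565, 0.583 and 0.484 at D2, D4 and D6. The log2 ratio fell by 0.89 from D0 to D6, from -0.16 ± 0.14 to -1.05 ± 0.24 (SD, n = 3). No D0 library overlapped one of a later day, with a two-sided exact permutation p of 0.10, the smallest that 3 against 3 can give. Over the runs the ratio lay between 0.870 and 0.915 in the 3 runs of D0 and between 0.470 and 0.647 in the 4 of D6.

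Counting limits differ between the subunits. Nearly all Fth1 reads (99.7 to 100% by day) had a mapping quality under 10, so that a cut there leaves no value, and 94.3% of them lay on Fth1-201 (chr19:9982646-9985098, 4 exons, 929 bases). For Ftl1 (Ftl1-201, chr7:45457944-45459884, 968 bases) 59.3 to 62.4% of reads were under that quality by day. A further 1488 reads lay on Ftl1-ps1, a pseudogene that carries the element pattern too. These were 16.4%, 18.1%, 16.7% and 18.7% of the 2 names together at D0, D2, D4 and D6, and the log2 ratio above fell by 0.93 with them added to Ftl1.

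**Figure D1:**
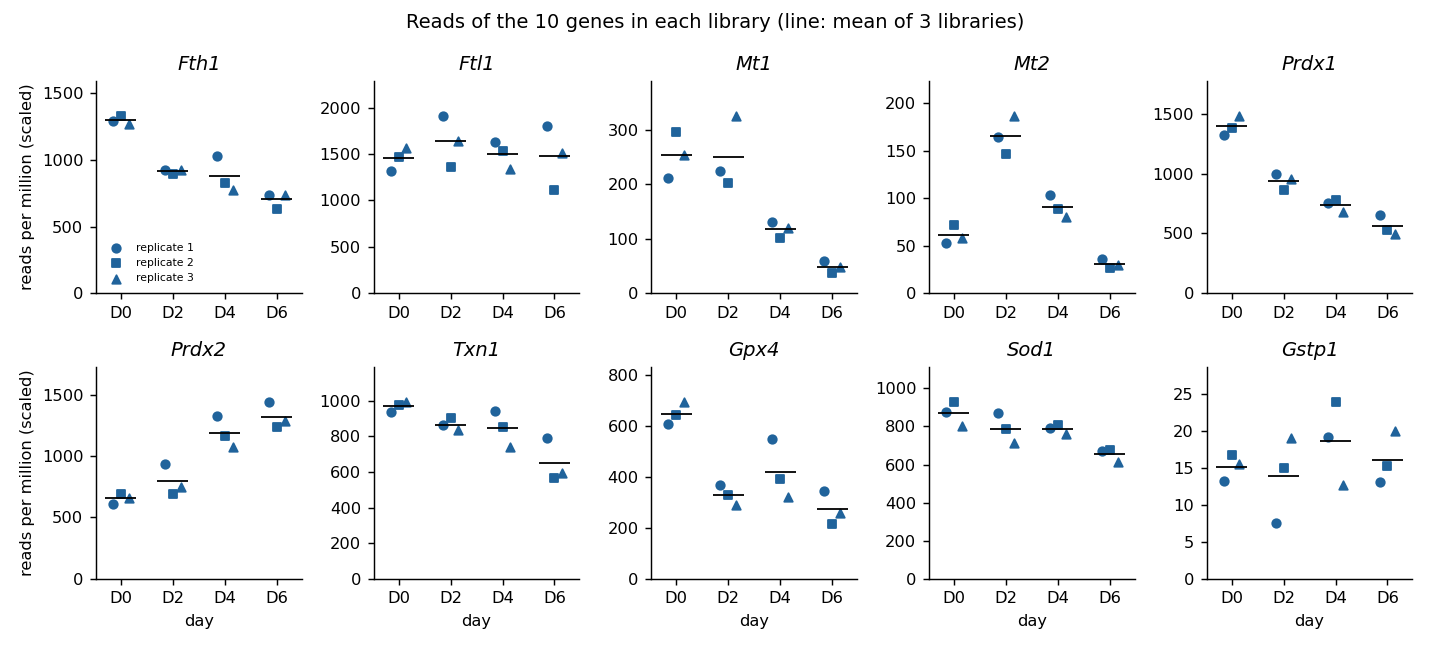
Reads of each of the 10 genes in CPM on the vertical axis, by day on the horizontal axis. Each point is 1 library (circle, square and triangle for replicates 1, 2 and 3) and each line is the mean of 3. Fth1, Prdx1, Gpx4 and Mt1 end far below D0, Prdx2 ends above it, Mt2 peaks at D2, and Ftl1 stays within its own spread.

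The metallothioneins had the steepest changes, and they parted at D2. Mt2 rose 2.66-fold at D2 while no change of Mt1 was detected, and from D4 on both went down. Mt2 went from 53.1, 72.3 and 58.1 CPM at D0 to 165, 146 and 186 at D2, then to 104, 89.2 and 80.2 at D4, then 36.1, 26.8 and 29.95 at D6. All 3 D2 libraries were above every other library, and all 3 of D6 were below all of D0. Its log2 difference against D0 was 1.41 ± 0.22 at D2 (limma-voom adjusted p 1.39e-06), 0.53 ± 0.21 at D4 (0.0593), then -1.001 ± 0.276 at D6 (0.00296). The D4 rise was called in 5 of 26 alternative fits, among them those with library totals for scaling and with every quality tag. With libraries thinned to the depth of the smallest, the D6 call was lost (-1.23 ± 0.51, adjusted p 0.0802). Mt2 also fell from D2 to D4 by 0.89 (0.00530) and from D4 to D6 by 1.53 (5.37e-05). The call from D2 to D4 was lost without D2 replicate 3, and both of these calls were lost under that thinning.

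Mt1 had 212, 296 and 254 CPM at D0 and 225, 203 and 325 at D2, which overlapped, with a log2 difference of -0.04 ± 0.17 (adjusted p 0.920). It then had 130.4, 102 and 120.3 at D4 and 59.0, 36.4 and 47.4 at D6. All D4 libraries lay below all of D2, and all D6 libraries below all of D4 (log2 change from D4 to D6 -1.34 ± 0.25, adjusted p 0.000124, a call lost under thinning). Against D0 the log2 change was -1.13 ± 0.17 at D4 (6.66e-07) and -2.46 ± 0.23 at D6 (1.93e-13), a 5.52-fold drop and the largest fall among the 10 genes. These D6 levels rest on few molecules, 18, 19 and 19 reads of Mt1 and 11, 14 and 12 of Mt2.

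Within libraries Mt1 had 4.15 reads per Mt2 read at D0 (geometric mean) and 1.49, 1.29 and 1.52 at D2, D4 and D6. The log2 ratio was 2.05 ± 0.07 at D0 and 0.57 ± 0.20, 0.37 ± 0.20 and 0.60 ± 0.14 (SD, n = 3) at the later days, and no D0 library overlapped a later one. The exact permutation p was 0.10 for each later day against D0, 0.4 for D4 against D2 and 0.2 for D6 against D4, all two-sided. By run the ratio was 3.18 to 5.03 in the 3 runs of D0 and 1.12 to 1.70 in the 3 of D2. It was 1.11 to 2.27 in the 3 runs of D4 and 1 to 4 in the 4 of D6, where the highest, within the range of D0, came from 4 reads of Mt1 and 1 of Mt2. By library the 3 later days overlapped one another. Reads of both genes mapped well, with at most 0.617% of Mt1 and 7.11% of Mt2 reads under a mapping quality of 10 by day. Almost all lay on 1 transcript each, Mt1-201 (chr8:94179082-94180327, 3 exons, 549 bases) and Mt2-201 (chr8:94172664-94173568, 3 exons, 511 bases). Mt3, the member of the family known from brain, had 4 reads in the 12 libraries.

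The 2 peroxiredoxins exchanged places. Prdx1, the one with more reads at D0, fell 2.54-fold by D6, and Prdx2 rose 1.99-fold. Prdx1 had 1327, 1386 and 1481 CPM at D0, 998, 863 and 960.0 at D2, 759, 777 and 678 at D4, then 656, 528 and 492 at D6. The libraries of every day lay wholly below those of the one before, though the step from D2 to D4 was not called (-0.34 ± 0.12, adjusted p 0.101) except under 4 of the alternatives. The log2 change against D0 was -0.58 ± 0.11 at D2, -0.93 ± 0.10 at D4, then -1.34 ± 0.10 at D6 (limma-voom adjusted p 5.40e-05, 5.17e-11 and 2.27e-16). The step from D4 to D6 (-0.42 ± 0.12, 0.0135) was not called without D4 replicate 1 or 2, without D6 replicate 2 or 3, with mapping quality of at least 10 or under thinning.

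Prdx2 had 612, 691 and 660.2 CPM at D0 and 938, 691 and 749.8 at D2, which overlapped (log2 difference 0.24 ± 0.12, adjusted p 0.222). That difference was called with library totals for scaling and with every quality tag. Prdx2 then had 1327, 1166 and 1074 at D4 and 1440.1, 1234 and 1283 at D6, above every D0 and D2 library. The change against D0 was 0.84 ± 0.11 at D4 (4.66e-09) and 0.99 ± 0.10 at D6 (8.50e-12). The step from D2 to D4 was 0.60 ± 0.12 (0.000474) and was not called without D2 replicate 2, and D4 and D6 overlapped (0.360). Within libraries, Prdx1 to Prdx2 went from 2.14 reads per read at D0 through 1.19 at D2 and 0.622 at D4 to 0.421 at D6, a log2 fall of 2.34 from 1.09 ± 0.08 to -1.25 ± 0.13 (SD, n = 3). Every day lay wholly below the one before in this ratio as well (exact permutation p 0.10 for each step, two-sided). The runs of each day gave 1.75 to 2.32 at D0, 1.14 to 1.46 at D2, 0.605 to 0.683 at D4, then 0.337 to 0.439 at D6.

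Prdx1 reads lay on Prdx1-204 (chr4:116685544-116700822, 6 exons). Prdx2 (Prdx2-201, chr8:84969611-84974834, 6 exons) had 73.0% of its reads there, 17.6% on Prdx2-203 and 5.37% on Prdx2-202. Prdx2 reads under a mapping quality of 10 were 31.6% at D0 and 19.9% at D6. With such reads left out the log2 ratio fell by 2.58. Most reads of both genes ended well before the annotated end. Reads on the main transcript that ended past base 1200, a limit chosen after the values were seen, were 5.28% ± 0.48 of Prdx1 reads at D0 and 4.62% ± 1.15 at D6 (SD, n = 3). They were 6.85% ± 2.22 and 5.57% ± 1.28 of Prdx2 reads. The days overlapped in both.

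**Figure D2:**
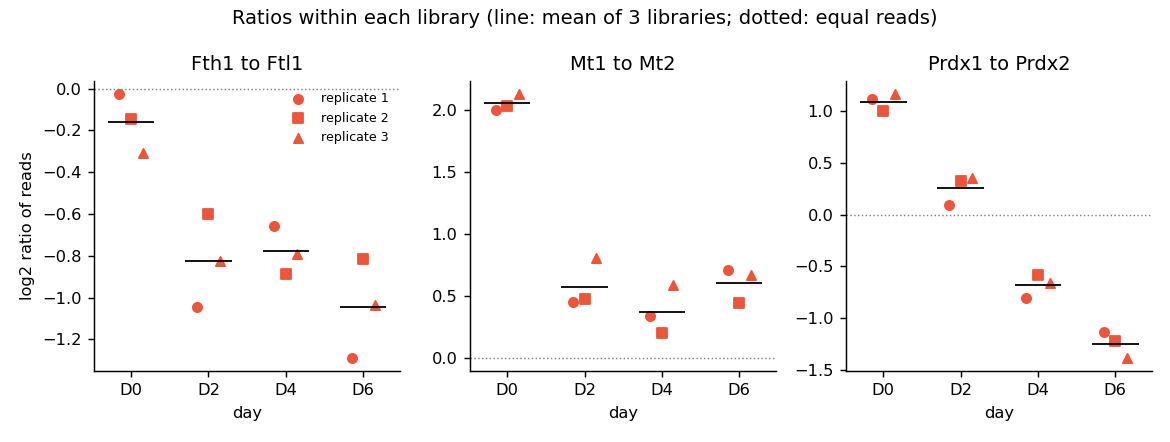
Log2 ratio of reads within each library (vertical axis) for the 3 pairs, by day (horizontal axis), with 1 point per library and a line at the mean of 3. The Prdx1 to Prdx2 ratio steps down at each day from 1.09 to -1.25, that of Mt1 to Mt2 lies below D0 at all later days, which overlap, and that of Fth1 to Ftl1 lies below D0 at all later days.

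Txn1, Gpx4 and Sod1 were lower at D6, to unequal degrees. Gpx4 fell 2.48-fold, Txn1 1.53-fold and Sod1 1.33-fold. Gpx4 had 608, 643 and 695 CPM at D0, 368, 330.3 and 291 at D2, 548, 392 and 323 at D4, then 344, 216 and 257 at D6. All later libraries were below D0, and D4 replicate 1 stood above the others of its day. The log2 change was -0.99 ± 0.16 at D2, -0.69 ± 0.13 at D4, then -1.31 ± 0.14 at D6 (limma-voom adjusted p 3.27e-06, 3.72e-05 and 2.12e-11). The fall from D4 to D6 (-0.61 ± 0.15, 0.00417) was not called without D4 replicate 1, without D6 replicate 2, under thinning or with mapping quality of at least 10, a limit that 37.1 to 45.0% of Gpx4 reads missed by day. Its main transcript was Gpx4-202 (chr10:80053488-80056439, 7 exons, 87.4% of reads) and 8.16% lay on Gpx4-201. Gpx4-ps2 took 531 further reads, 24.2%, 18.6%, 12.9% and 19.6% of the 2 names together at D0, D2, D4 and D6.

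Txn1 had 937, 976 and 993 CPM at D0 and 794, 566 and 594 at D6, without overlap (-0.61 ± 0.11, adjusted p 7.22e-06). At D2 and D4 its differences of -0.16 ± 0.12 and -0.22 ± 0.11 were not called (0.443 and 0.122). The step from D4 to D6 (-0.39 ± 0.11, 0.0219) was not called in 10 of 26 alternatives, among them thinning, mapping quality of at least 10 and leaving out D4 replicate 1 or 2 or D6 replicate 2 or 3. Sod1 had 875, 928 and 802 CPM at D0 and 672, 675 and 614 at D6, again apart (-0.41 ± 0.10, 0.00127), with -0.15 ± 0.11 and -0.14 ± 0.10 at D2 and D4 (0.447 and 0.320). Gstp1 was hardly read, with 1 to 11 reads a library (75 in all). Its log2 difference at D6 was 0.09 ± 0.42 (0.888). All Gstp1 reads had a mapping quality under 10. Of them 39 lay on Gstp1-201 (chr19:4035407-4037985) and 33 on a copy of the transcript on a patch of the assembly.

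Read against all 9355 genes tested, the 10 leaned down at D6. At D2, 3 of the 10 were called lower (Fth1, Prdx1 and Gpx4), beside 6.01% of all genes, and 1 higher (Mt2), beside 4.74%. At D4, 4 were lower (Fth1, Mt1, Prdx1 and Gpx4), beside 12.5%, and 1 higher (Prdx2), beside 12.9%. At D6, 7 were lower and 1 higher (Prdx2), beside 18.6% and 19%. Their median log2 change at D6 was -0.75, and that of all genes was 0.00. The 3 comparisons share the D0 libraries and are not independent. Between neighbouring days, D4 against D2 called 2 lower (Mt1 and Mt2) and 1 higher (Prdx2), beside 1.11% and 2.15%. D6 against D4 called 5 lower (Mt1, Mt2, Prdx1, Txn1 and Gpx4) and 0 higher, beside 4.27% and 4.13%. Well-read genes reach the threshold more easily, and 9 of the 10 had means of 28.3 to 562 reads a library. Together the 10 took 0.718% ± 0.021 of mRNA reads at D0, 0.694% ± 0.051 at D2, 0.640% ± 0.040 at D4, then 0.600% ± 0.049 at D6 (SD, n = 3). D0 and D6 did not overlap (exact permutation p 0.10, two-sided).

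**Figure D3:**
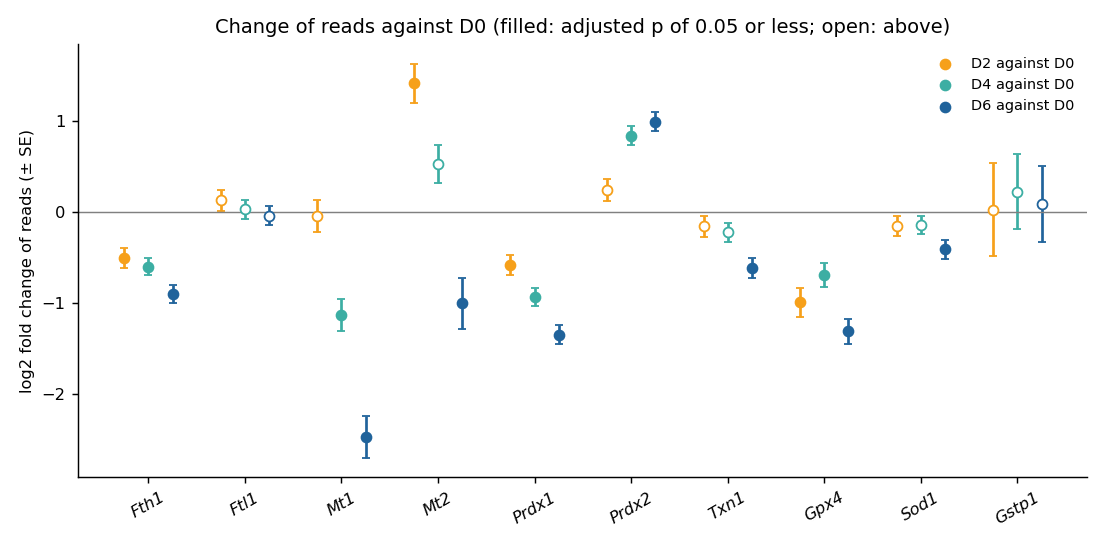
Log2 fold change of reads against D0 (vertical axis, bars of ± 1 SE from limma-voom) for the 10 genes (horizontal axis) at D2, D4 and D6. Filled points passed an adjusted p of 0.05 and open points did not: 7 genes are filled below 0 at D6, Prdx2 is the one filled above 0 at D4 and D6, and Mt2 is above 0 at D2 and below it at D6.

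The other lists are read beside the shares of all genes at D6, 18.6% lower and 19% higher, and the counts for iron uptake and for zinc and copper lay near them. Of 16 listed genes of iron uptake, export and sensing, 10 passed the filter of 30 reads, and at D6 2 were lower (median log2 change of the list -0.29). Those were Tfrc, the transferrin receptor (-0.67 ± 0.21, adjusted p 0.00931), and Pcbp2, an iron chaperone that also binds RNA (-0.37 ± 0.11, 0.00769). The 1 higher gene was Slc39a14, a carrier of zinc and iron with a mean of 3.33 reads a library, named because it was the only one (2.03 ± 0.71, 0.0189). Ireb2 (0.02 ± 0.24, adjusted p 0.952) and Aco1 (-0.33 ± 0.25, 0.324), the proteins that bind the element shown above, were not called. Of 29 tested genes for haem and iron-sulphur clusters 9 were lower and 2 higher. The lower ones included Urod, an enzyme of haem synthesis (-0.90 ± 0.22, adjusted p 0.000698), and the higher ones Ciao2b of the cytosolic cluster pathway (0.56 ± 0.23, 0.0481). In zinc and copper handling 2 of 17 were lower, the zinc carriers Slc39a7 (-0.47 ± 0.18, 0.0375) and Slc39a8 (-2.45 ± 0.52, 0.000123), and 3 higher (Slc30a9, Slc39a3 and Slc39a6). Slc39a8 and the 3 higher genes each had a mean under 20 reads a library and were named after their values were seen.

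Glutathione genes leaned down. Of 21 tested, 10 were lower and 1 higher at D6, beside 18.6% and 19% of all genes, with a median log2 change of -0.62. Slc3a2, the partner chain of the cystine carrier, fell by 1.80 ± 0.19 (adjusted p 1.03e-11) and the transferase Gsta4 by 1.52 ± 0.16 (5.84e-12), while Gpx1, the cytosolic glutathione peroxidase, rose by 1.59 ± 0.17 (2.11e-11). Gpx1 and Gpx4, both glutathione peroxidases, thus went opposite ways. In the thioredoxin and peroxiredoxin list 7 of 23 were lower and 4 higher, the latter near the share of all genes. Prdx6 (-1.02 ± 0.14, 2.51e-08) and Txnip, which binds and holds thioredoxin (-1.08 ± 0.23, 0.000155), fell, and the mitochondrial Prdx3 (0.68 ± 0.22, 0.00982) and Tmx1 (0.79 ± 0.21, 0.00208) rose.

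Of 24 other antioxidant and NADPH genes, 5 were lower and 4 higher, near the shares of all genes at D6 (18.6% and 19%). The selenoproteins Selenow (3.13 ± 0.19, adjusted p 4.36e-21) and Selenok (1.79 ± 0.20, 9.87e-11) rose, and Taldo1 (-0.98 ± 0.17, 3.18e-06) and Tkt (-0.57 ± 0.15, 0.00147) of the pentose phosphate pathway fell. Among 9 tested regulators of the antioxidant response 1 was lower and 2 higher, also near those shares for so few genes. The higher ones included Sqstm1, which binds Keap1 (0.62 ± 0.15, 0.000741). Of 12 stress genes 6 were lower and 2 higher, with Ddit4 at -3.14 ± 0.20 (1.72e-19), Asns at -2.48 ± 0.19 (1.11e-16) and Xbp1 at 0.97 ± 0.22 (0.000231). The stress list had a median of -0.81 at D6 and -0.78 at D2, where 5 of 12 were lower and 0 higher, beside 6.01% and 4.74% of all genes.

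**Figure D4:**
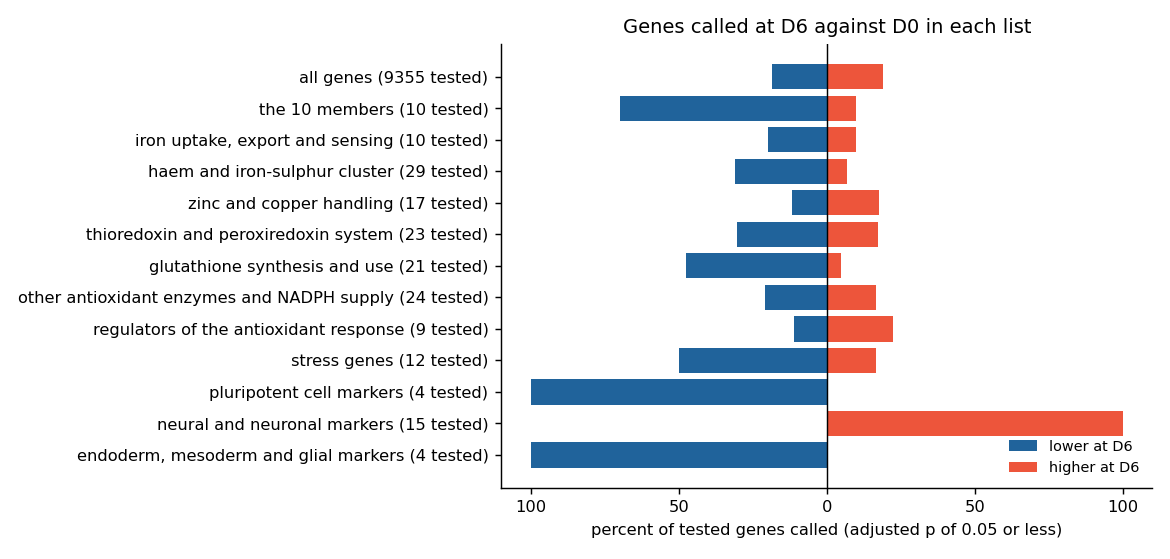
Share of the tested genes of each list called lower (left of 0) or higher (right of 0) at D6 against D0, in percent, with the number tested beside each name. All genes split almost evenly (18.6% and 19%), the 10 genes described here and the glutathione list lie mostly to the left, and neural and pluripotency markers lie wholly on opposite sides.

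By pattern over the 12 libraries, the genes closest to each metal-binding gene were found among 1079 or 1080 other genes with a mean of at least 50 reads. Values are Pearson's r of log2 CPM, given as a description, since the libraries share days and scaling. Fth1 was closest to Timm23 (r 0.986), Kars (0.979) and Mrpl54 (0.979), all highest at D0. Ftl1 had weaker matches in Sf3b4 (0.881), Rab7 (0.879) and Tmem258 (0.862). Mt1 went with Hat1 (0.980), Cenpw (0.971) and Hmga1b (0.969). Mt2, with its peak at D2, went with Fkbp3 (0.969), Pcna (0.947) and Pclaf (0.946). Pcna, the sliding clamp of DNA replication, went from 638 CPM at D0 to 916 at D2 and 486 at D6 (means of 3).

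Among the poly(A) tails of these mRNAs, that of Mt1 was called shorter at D2, and no other member's difference in median against D0 was called in the fit to all libraries. A median per gene and library was used, for genes with at least 10 reads in each library, which 1769 genes and 9 of the 10 passed (Gstp1 did not). At D0 the mean of the 3 library medians was shortest for Sod1 (89.9 ± 0.4 nt) and Fth1 (94.3 ± 3.1), followed by Gpx4 (100.8 ± 5.2), Ftl1 (104.6 ± 5.2), Prdx1 (105.8 ± 3.5) and Txn1 (107.5 ± 4.4). Mt2 (119.6 ± 13.3), Prdx2 (119.9 ± 3.2) and Mt1 (136.5 ± 1.1 nt; SD, n = 3) had longer ones. Neighbours from Gpx4 to Txn1 lay within their spread, as did Mt2 and Prdx2. The D0 libraries as a whole had medians of 97.1, 100.5 and 102 nt over all their mRNA reads, above the means of Sod1 and Fth1 and below those of the 6 genes from Ftl1 up.

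The Mt1 tail was the one that was called. It shortened by 35.6 ± 10.1 nt (SE) at D2 (limma adjusted p 0.0336). Its medians were 138, 136 and 135 nt at D0 and 96.6, 110.3 and 95.8 nt at D2, with no overlap, then 112, 121 and 108 nt at D4, then 119, 92.2 and 145 nt at D6, where D6 overlapped D0. The share of tails of 30 to 90 nt was 21.9% (95% Wilson interval 14.8 to 31.1), 17.0% (12.2 to 23.3) and 17.6% (11.99 to 25.0) at D0, and 43.3% (27.4 to 60.8), 33.3% (22.2 to 46.6) and 44.1% (32.9 to 55.9) at D2. These intervals cover counting error only. The mean rose by 21.4 ± 5.8 points (0.0150). At D4 and D6 the differences in median were -22.8 ± 10.1 and -17.7 ± 10.1 nt and were not called (0.302 and 0.390). Without D6 replicate 3, the library at 145 nt, the D6 difference of Mt1 was -30.8 nt and was called (limma adjusted p 0.0476), and with libraries weighted by their reads the D4 difference was called (0.0457).

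The D2 call of Mt1 rests on 30, 54 and 68 reads. The median lost its call without any one of the D0 libraries or without D2 replicate 1 or 3. The share of 30 to 90 nt lost its call without D0 replicate 2 or 3, without D2 replicate 1 or 3 and with limits of 35 and 95 nt (adjusted p up to 0.0986 over the alternatives). Mt1 was not tested when 30 reads were asked of every library. No change in its level was detected between D0 and D2 (above). Its neighbour Mt2, whose level rose, had medians of 122, 105.2 and 131 nt at D0 and 147, 114 and 104.9 nt at D2 (difference 2.24 ± 13.0 nt, adjusted p 0.960).

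Txn1 came next. Its medians were 106, 104 and 112 nt at D0 and 96.9, 97.0 and 95.6 nt at D6, all D6 libraries below all of D0. The difference of -11.0 ± 3.5 nt missed the threshold (adjusted p 0.0528) and was called in 8 of 19 alternatives, among them the fit with a replicate block (0.0476). Its tails under 30 nt were 0.869% ± 0.594 at D0 and 2.49% ± 1.14 at D6 (0.380). Sod1 tails under 30 nt were 1.86% ± 0.35 at D0, 3.45% ± 0.82 at D2, 3.23% ± 0.18 at D4, then 3.73% ± 1.02 at D6 (SD, n = 3), each later library above those of D0, and none of the days was called (0.577, 0.412 and 0.169). The medians of Fth1 ranged from 88.2 to 100.1 nt over the 12 libraries and those of Ftl1 from 96.3 to 108 nt, and none of their differences against D0 was called, the widest being -6.09 ± 2.61 nt for Ftl1 at D4 (0.275). Without D0 replicate 1 that Ftl1 difference was -9.10 nt and was called (limma adjusted p 0.0150), as was its share of 30 to 90 nt at D4 (7.27 points higher, 0.0233).

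Read against all genes, 1 of 9 was called in median tail length at D2, beside 6.56% of 1769 genes, and 0 at D4 and D6, beside 7.12% and 8.08%. For the share of 30 to 90 nt, 1 was called at D2, beside 6.33%, and 0 at D4 and D6, beside 6.33% and 6.90%. For the share under 30 nt none of the 9 was called at D2, D4 or D6, beside 0%, 1.47% and 2.88%. By limma at D2, where no gene was called in that share, 126 of 1769 genes and 2 of the 9 (Sod1 and Txn1) had an unadjusted p under 0.05. With class limits of 35 and 95 nt 8 genes were called there, none of the 9 among them. The median difference of the 9 in median length was -2.4, -5.8 and -3.2 nt at D2, D4 and D6, and that of all genes -3.7, -2.2 and 1.4 nt. Spike-in RNAs, whose tails do not depend on the cells, were read in the same libraries. At D0, D2, D4 and D6 the median tail of RNA-Spike-64-A was 60.2, 63.6, 63.8 and 60.2 nt, and that of RNA-Spike-256-A was 102, 117, 105.2 and 108 nt, the D2 value of the latter from 1 library. The other 3 spike-ins moved by 3.03 to 4.96 nt between days, and RNA-Spike-256-A by 15.3 nt.

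**Figure D5:**
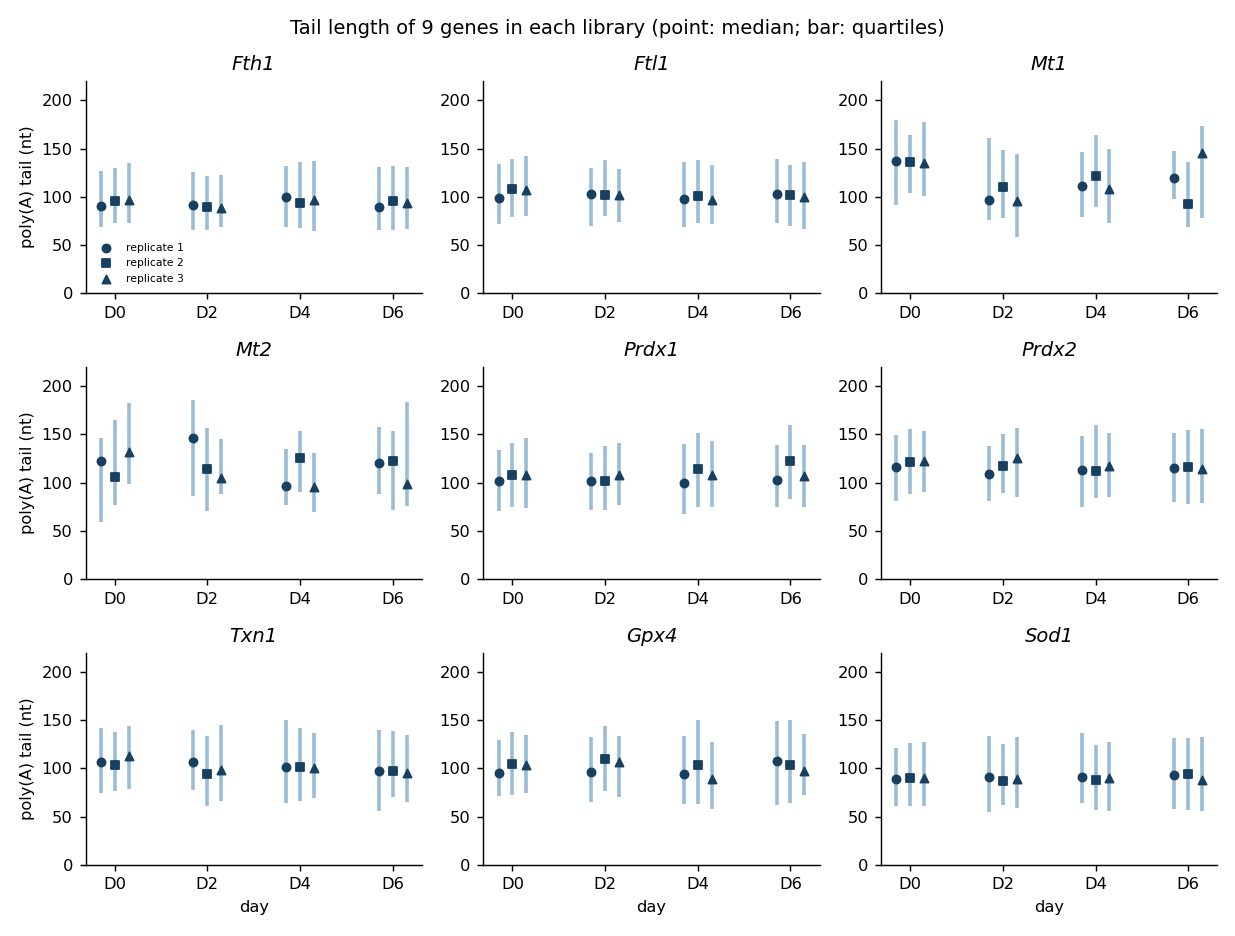
Poly(A) tail length in nt (vertical axis) of 9 genes by day (horizontal axis). Points are the median of 1 library (circle, square and triangle for replicates 1, 2 and 3) and bars run from the lower to the upper quartile. Mt1 drops from 135 to 138 nt at D0 to 95.8 to 110 nt at D2, while the means of the other 8 genes stay within 13.6 nt of D0 at each day.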

How the data were processed

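P19 cells were read by nanopore direct RNA sequencing in 12 libraries. The authors basecalled with Guppy, assigned barcodes with Deeplexicon, aligned reads with Minimap2 2.20 to mm10 transcripts (GENCODE vM17) and estimated tails with Nanopolish. They deposited 1 line per read, with the tail length in nt, the mapping quality as a score and the barcode confidence as a fraction, as the authors' tools gave them. A deposited table of the authors' DESeq2 fold changes was not used.

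PASS reads of class mRNA (4625696 lines, 2663 of which repeat a read) were tallied per gene and library. Genes with 30 or more reads over all libraries (9355) were tested by limma-voom (limma 3.58.1, R 4.3.3) on TMM-scaled library sizes, with all 4 days in 1 model, a pseudocount of 0.5 reads and Benjamini-Hochberg adjustment, calling at an adjusted p of 0.05. CPM use the same scaling. Tail medians and shares were tested by limma for genes with at least 10 reads in every library (1769). Differences in within-library ratios between days were given an exact permutation p, two-sided. Tables were handled in Python 3.11.15 with pandas 2.3.3, numpy 2.4.6 and scipy 1.17.1, and the fits were tested on simulated data.

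Libraries were grouped by the day in their labels and held 130162 to 642548 reads, so counting error is widest at D2. The genes and lists were chosen with earlier results of these data known. From each list at most 2 higher and 2 lower genes at D6 with a mean of 20 or more reads a library are named, by largest change. Alternatives covered scaling, filters, mapping quality, quality tag, barcode confidence, repeated reads, transcript, depth, tail limits and leaving out each library.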

Additional observations from a re-analysis of the deposited data

Results flagged for a closer look

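Reads on 2 pseudogenes lay outside the counts of their parent genes. Ftl1-ps1 took 1488 reads over the 12 libraries, 84.1% of them with a mapping quality under 10. Gpx4-ps2 took 531 reads, 90.02% of them under that quality. The share of Gpx4-ps2 in the reads of both names was 24.2% ± 2.9 at D0 and 12.9% ± 2.2 at D4 (SD, n = 3), without overlap, and 19.6% ± 7.4 at D6, which overlapped D0. The part of these reads in the changes of Ftl1 and Gpx4 was not tested beyond adding them to the parent genes.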

How the results depend on the processing

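No called change in reads of the 10 genes turned direction under any alternative run. With library totals in place of TMM the median log2 change of all genes moved to 0.10 (D2 against D0), 0.17 (D6 against D0) and 0.11 (D6 against D4). Lower and higher calls were then 387 and 633 (562 and 443 with TMM), 1330 and 2276 (1744 and 1781) and 271 and 520 (399 and 386), and for D4 against D2 155 and 172 (104 and 201). Limma-trend called 423 genes for D6 against D4 (298 lower, 125 higher).

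All genes called at D2 against D0 (1005) became 1697 with no filter, 557 with mapping quality of at least 10 and 320 when libraries were thinned to the smallest. Under those last 2 settings D6 against D0 (3525) gave 2173 and 1145, and D6 against D4 (785) gave 407 and 161. Thinning gave 667 for D4 against D0 (2378) and 133 for D4 against D2 (305). Of the 5 members called at D6 against D4, 2 stayed called in number with the mapping quality limit and 0 when thinned, and thinning also ended the calls of Mt2 for D6 against D0 and D4 against D2.

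For median tail length the 9 members gave 0 calls at D2 with 30 reads asked of every library, 1 at D4 with weights by reads, and 1 at D6 with 30 reads, weights, the mapping quality limit, the transcript with most reads or the mean of log2 length. For the share of 30 to 90 nt they gave 0 at D2 with 30 reads or limits of 35 and 95 nt, and 1 at D6 with 30 reads, weights or limits of 25 and 85 nt. For the share under 30 nt they gave 1 at D6 with limits of 35 and 95 nt. All genes called in that share were 8 at D2 with limits of 35 and 95 nt. At D4 (26) they were 47 with 30 reads, 54 with weights, 17 with the mapping quality limit, 13 with barcode confidence of at least 0.75, 1 with limits of 25 and 85 nt and 59 with 35 and 95 nt. At D6 (51) they were 90, 83, 12 and 85 with 30 reads, weights and those 2 limits.

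The log2 ratio of Prdx1 to Prdx2 fell by 2.58 with the mapping quality limit and to a difference of -2.48 on the main transcripts, and that of Mt1 to Mt2 fell by 1.29 with every quality tag. The cause of these moves was not tested.

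Leaving out 1 library at a time, all genes called ranged from 668 to 1022 (D2 against D0; lowest without D2 replicate 2), 1812 to 2384 (D4 against D0), 2815 to 3539 (D6 against D0), 167 to 327 (D4 against D2; lowest without D2 replicate 2) and 407 to 789 (D6 against D4; lowest without D4 replicate 2). Members called ranged from 5 to 6 for D4 against D0, 2 to 4 for D4 against D2 and 2 to 5 for D6 against D4, and stayed at 4 and 8 for D2 and D6 against D0. In tails they ranged from 0 to 1 for the median at D2, D4 and D6 and for the share of 30 to 90 nt at D2 and D4. All genes called in the median ranged from 83 to 120, 104 to 131 and 112 to 164, in the share of 30 to 90 nt from 78 to 127, 93 to 117 and 101 to 137, and in the share under 30 nt from 0 to 7, 0 to 24 and 17 to 56, at D2, D4 and D6. The ratio of Fth1 to Ftl1 ranged from -1.001 to -0.77, Mt1 to Mt2 from -1.50 to -1.37, Prdx1 to Prdx2 from -2.40 to -2.27 (log2), and the members' share of reads from -0.145 to -0.0967 points.

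The labels tie the replicate numbers to no shared culture or batch. Of 18 pairs of the same number 11, not all, had a correlation of deviations over 0.1 (-0.136 to 0.385, median 0.13, against -0.0502 for different numbers). Deviations were taken from the mean of each day, so these medians depend on each other. By this measure 8 of 12 libraries correlated best with their own number, a hint of pairing from the data. The authors pooled the replicates of each day under the same 3 barcodes. A shared number could thus be a shared barcode, which was not tested. With a replicate block the members called in reads stayed at 4, 5, 8, 3 and 5, all genes called were 1059, 2099, 3176, 359 and 664, members called in median tail at D6 were 1 (Txn1), and all genes called in the share under 30 nt at D4 were 41.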
